A study of Mus musculus with 477 samples.

Results

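*Cd36*-high alveolar cells were examined among mammary luminal cells of pregnant mice. A cell was a member when it had a *Cd36* level of 100 CPM or more, a *Prlr* level under 500 CPM and an *Esr1* level under 100 CPM, where CPM is the reads of a gene scaled to a total of 1000000 reads in that cell. These limits kept 125 of the 198 pregnant luminal cells, in a series of 477 single cells. The mice carried MMTV-Cre, a Cre recombinase driven by the mouse mammary tumor virus promoter, together with a ROSA mT/mG reporter that turns on membrane green fluorescence in cells where Cre has acted. The groups were *Brca1* mutant (pBrL, *Brca1* fl/fl), *Trp53* heterozygous mutant (p53L, *Trp53* fl/+) and double mutant (pBr53L, *Brca1* fl/fl with *Trp53* fl/+), all females of mixed C57BL/6 and 129/Sv background, 3 to 4 months old, at day 12.5 of pregnancy. No mouse with both genes intact was in these groups. Lineage-depleted cells of the fourth mammary glands had been sorted as live, CD24 high, CD29 low and green, and each cell was then isolated and turned into cDNA on a Fluidigm C1 microfluidic chip.

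Alveolar cells are the luminal cells that form milk. During pregnancy, progesterone and prolactin drive their expansion, and prolactin signalling through JAK2 and STAT5, together with the transcription factor ELF5, turns on milk protein genes, the caseins early and the whey proteins later. The same cells take up fatty acids, make medium-chain fatty acids and pack triglyceride into lipid droplets that leave the cell as milk fat globules. *Cd36* encodes a membrane glycoprotein that takes up long-chain fatty acids. *Prlr* and *Esr1* encode the prolactin and estrogen receptors, which are most abundant in hormone-sensing luminal cells.

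The 4 pregnant mice were pBrL-1, pBrL-2, pBr53L and p53L. Members made up 47 of 71 cells in pBrL-1 (66.2%, exact 95% binomial interval 54% to 77%), 16 of 38 in pBrL-2 (42.1%, 26.3% to 59.2%), 38 of 53 in pBr53L (71.7%, 57.7% to 83.2%) and 24 of 36 in p53L (66.7%, 49% to 81.4%). The share was lowest in pBrL-2, whose interval overlapped those of the other 3 mice. Intervals cover counting error only. Among the other 73 cells, 36 were inside the *Prlr* and *Esr1* limits with *Cd36* under 100 CPM (*Cd36*-low cells: 13, 13, 7 and 3 in pBrL-1, pBrL-2, pBr53L and p53L), and 37 were past the *Prlr* or *Esr1* limit (11, 9, 8 and 9). Of these 37 cells, 23 were past the *Prlr* limit, 16 past the *Esr1* limit and 2 past both, and 25 had 100 CPM or more of *Cd36*. Each mouse was loaded on a chip of its own among the pregnant samples, so genotype, animal and chip cannot be told apart, and the mouse was the replicate in every test.

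Members had a median of 1745440 reads and 5026 detected genes per cell, *Cd36*-low cells 1682330 reads and 4702.5 genes, and cells past the *Prlr* or *Esr1* limit 1667940 reads and 5323 genes. Summed over members, the depth in 1000000 reads was 78.2 in pBrL-1, 30.9 in pBrL-2, 72.8 in pBr53L and 32.7 in p53L. The *Cd36*-low sum of p53L was the shallowest, at 3.03 on this scale from 3 cells. There are no molecular identifiers in these libraries, so copies of 1 molecule are counted separately. No cell held the same values as another. A *Cd36*-low cell of pBrL-1 went against the luminal label, with 30558 CPM of summed basal markers, 1740 CPM of summed fibroblast markers, 111 CPM of *Krt18* and 6.52 CPM of *Epcam*. A member of pBr53L with leukocyte genes is described below. Some class sums hold few cells. Each sum was therefore also taken without the 1 cell that gave it the most reads of the gene or list. Turned directions are given below for the list counts against *Cd36*-low cells and for several single genes, but not for every gene.

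Because *Cd36*, *Prlr* and *Esr1* chose the cells, their levels are given as a description. *Cd36* (chromosome 5, 17781690 to 17888801, minus strand, mm10) ranged from 151 to 9464 CPM over the members, with a median of 1722. The members nearest to the limit had 151, 156, 158 and 170 CPM, all in pBr53L, and the *Cd36*-low cells nearest to it had 96.1, 82.8, 73.4 and 73.2 CPM. Few cells therefore lay near 100 CPM, and 14 of the 36 *Cd36*-low cells had no *Cd36* read. The members with the highest *Prlr* had 491 and 455 CPM, and the nearest excluded cells 513 and 519 CPM. For *Esr1* these values were 93.7 and 85 CPM inside, and 109.1 and 115 CPM outside. The mean share of members over the 4 mice was 61.7% ± 13.3 (SD), and it stayed between 59.5% and 63.4% with *Cd36* limits of 50 or 200 CPM, after thinning each cell to 100000 reads, or with milk protein genes left out of the total.

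**Figure D1:**
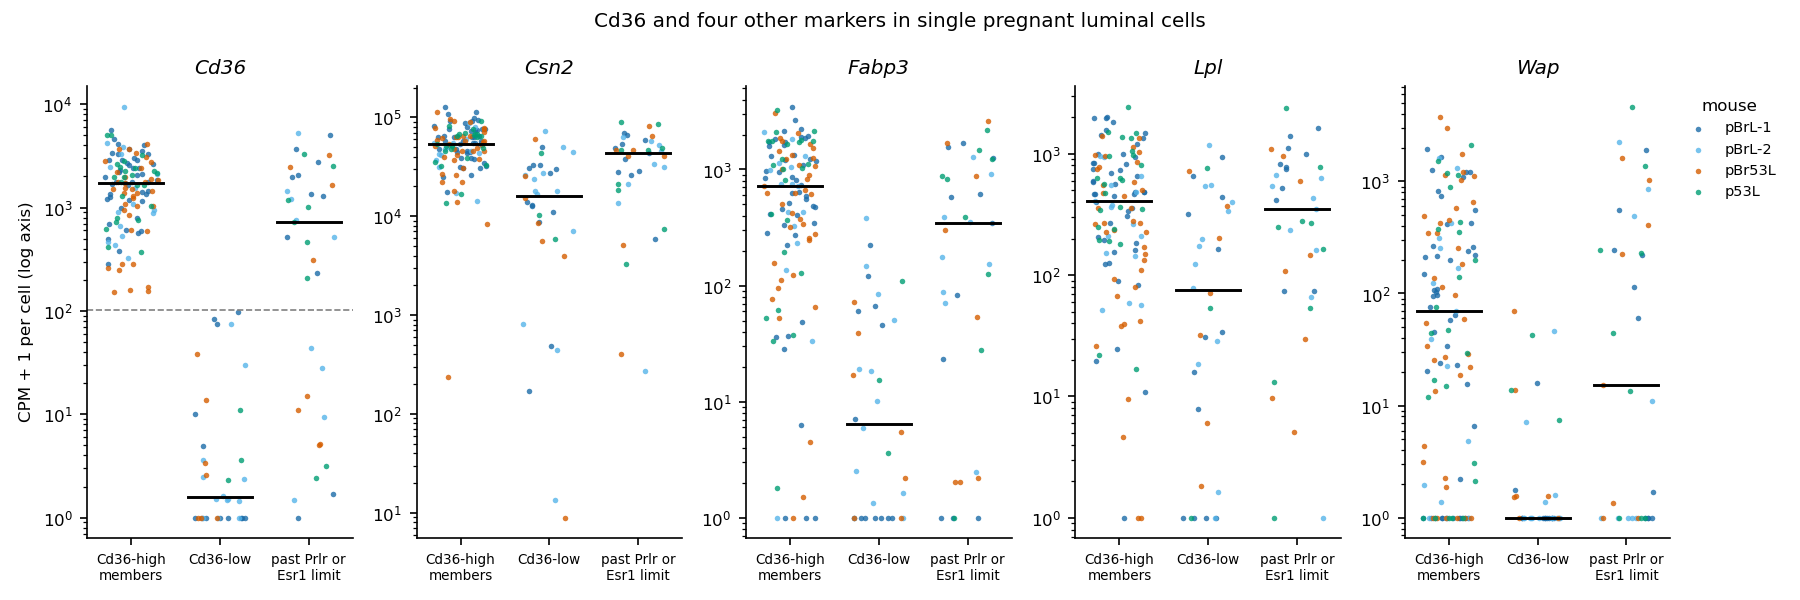
*Cd36*, *Csn2*, *Fabp3*, *Lpl* and *Wap* in each pregnant luminal cell, as CPM + 1 on a log axis, by class, with points coloured by mouse, black lines at the class medians and a dashed line at the *Cd36* limit. The median of *Fabp3* is 726 CPM in members, 5.47 CPM in *Cd36*-low cells and 342 CPM in cells past the *Prlr* or *Esr1* limit.

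Over the 4 mice, 3 genes passed the test between members and *Cd36*-low cells, and each was higher in members. They were *Fabp3*, a cytosolic fatty acid binding protein, *Glycam1*, a mucin-like secreted milk protein, and *Csn2*, which encodes beta-casein. The 250 bases before the RefSeq start of each of these genes and of *Cd36* are shown because prolactin acts on milk protein genes through STAT5, whose binding motif is spelled TTCNNNGAA and reads the same on both strands (GRCm38.p6, 5′ to 3′ on the strand of the gene, motif in capitals). The *Csn2* window (chr5:87699426-87699675, minus strand) held 1 match, starting 93 bases before the start:
Csn2: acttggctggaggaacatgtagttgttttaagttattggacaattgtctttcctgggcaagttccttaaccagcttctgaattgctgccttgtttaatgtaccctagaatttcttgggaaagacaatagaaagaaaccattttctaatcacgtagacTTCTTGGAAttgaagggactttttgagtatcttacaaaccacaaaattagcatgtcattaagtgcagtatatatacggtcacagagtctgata
The *Glycam1* window (chr15:103565082-103565331, minus strand) held 1 match, starting 145 bases before the start:
Glycam1: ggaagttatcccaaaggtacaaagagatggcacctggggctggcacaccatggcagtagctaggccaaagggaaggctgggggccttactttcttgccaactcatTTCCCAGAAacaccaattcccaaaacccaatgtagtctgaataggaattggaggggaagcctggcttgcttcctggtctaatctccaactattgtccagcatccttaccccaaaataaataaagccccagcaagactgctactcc
The *Fabp3* window (chr4:130308488-130308737, plus strand) held 0 matches:
Fabp3: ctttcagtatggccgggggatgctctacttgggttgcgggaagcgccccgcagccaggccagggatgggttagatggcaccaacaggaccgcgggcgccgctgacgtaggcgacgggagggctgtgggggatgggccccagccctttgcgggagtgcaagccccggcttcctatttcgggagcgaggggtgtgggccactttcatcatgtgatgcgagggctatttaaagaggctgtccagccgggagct
The *Cd36* window (chr5:17835897-17836146, minus strand) lay before a RefSeq start inside the gene span given above, not at the end of that span, and held 0 matches:
Cd36: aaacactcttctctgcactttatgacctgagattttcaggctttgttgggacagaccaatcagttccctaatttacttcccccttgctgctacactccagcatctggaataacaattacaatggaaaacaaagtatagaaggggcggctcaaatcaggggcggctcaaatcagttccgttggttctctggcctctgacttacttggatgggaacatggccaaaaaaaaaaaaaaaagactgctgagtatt
Over all 32851 RefSeq windows of this length, 7.02% held the motif, and among the 54 windows of the milk and lipid lists used below 4 did (7.41%), those of *Csn2*, *Glycam1*, *Csn1s1* and *Agpat1*. A match describes letters in the window and is no evidence of binding.

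Members were then compared with *Cd36*-low cells, which passed the same *Prlr* and *Esr1* limits. The cells of both arms were split by their own *Cd36* reads, so the other genes of these cells are not independent of the rule, and *Csn2*, *Fabp3*, *Lpl* and *Wap* had been proposed as markers of the members. The reads of all cells of a class in a mouse were added up and fitted with edgeR (quasi-likelihood test) with the mouse as a block. Of 10647 genes tested, 3 passed an adjusted p of 0.05, which is 0.0282% of the genes. DESeq2 on the same sums called 565 genes higher (5.31%) and 65 lower (0.611%) in members, including *Fabp3* and *Glycam1* but not *Csn2*. Without the basal-rich cell of pBrL-1, edgeR called 8 genes, all higher in members, which were these 3 and *Csn1s1*, *Csn1s2a*, *Lao1*, *Wap* and *Lipa*, a lysosomal lipase chosen after its values were seen. The median log2 fold change of all genes was 0.57 with the mouse as a block and -0.02 without it, so list medians below are read against 0.57. In all 4 mice, 12.2% of the genes had a higher summed CPM in members and 5.3% a lower one, and 4.83% and 1.64% had members all above or all below the *Cd36*-low sums.

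*Fabp3* (chromosome 4, 130308595 to 130315463, plus strand) carries fatty acids in the cytosol. Its summed CPM in members was 990 in pBrL-1, 781 in pBrL-2, 784 in pBr53L and 1114 in p53L, and in *Cd36*-low cells 49.3, 56.6, 16.6 and 58.1 CPM. Every member sum was above every *Cd36*-low sum. The log2 fold change was 4.53 ± 0.41 (SE, n = 4 mice, edgeR adjusted p = 0.00878). After thinning to 100000 reads, *Fabp3* was read in 117 of 125 members (93.6%) and in 19 of 36 *Cd36*-low cells (52.8%), and without thinning in 96% and 69.4%. Without pBrL-1 the edgeR adjusted p was 0.0545, the highest of 17 fits, and the lowest was 1.4e-12, with DESeq2.

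*Glycam1* (chromosome 15, 103562759 to 103565081, minus strand) reached 4751, 4539, 5850 and 7126 CPM in the members of pBrL-1, pBrL-2, pBr53L and p53L, and 439, 253, 244 and 95.7 CPM in the *Cd36*-low cells. The classes did not overlap, and p53L held both the highest member level and the lowest *Cd36*-low level. Its log2 fold change was 4.63 ± 0.42 (SE, n = 4 mice, edgeR adjusted p = 0.00878), and without pBr53L the edgeR adjusted p was 0.0695, the highest of 17 fits, the lowest being 1.91e-12 with DESeq2.

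*Csn2* (chromosome 5, 87692624 to 87699630, minus strand) had 62476, 49598, 52844 and 54160 CPM in members and 19909, 24661, 15261 and 25508 CPM in *Cd36*-low cells of the same mice. Leaving out the top cell of a class turned the direction of none of these 3 genes in any mouse. Again no member sum of *Csn2* was as low as a *Cd36*-low sum, although *Csn2* was read in every pregnant luminal cell, also after thinning. The log2 fold change was 1.44 ± 0.17 (SE, n = 4 mice, edgeR adjusted p = 0.0392). This call was lost without pBrL-1 (edgeR adjusted p = 0.142), without pBr53L (0.0695), without p53L (0.0876), without cells that had a *Ptprc* read (0.113), with cells of at least 1000000 reads only (0.111), with RLE size factors (0.0864) and without the block (0.0677). It kept its direction in all 17 fits, DESeq2 included, with log2 fold changes from 1.15 to 1.59.

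The remaining milk protein genes were grouped by when and how their products appear in milk. Among the 5 casein genes, 4 were higher in members in all 4 mice, with no overlap, and the list median was 1.44. *Csn1s2a* had 40444, 33111, 41306 and 62827 CPM in members of pBrL-1, pBrL-2, pBr53L and p53L, against 8043, 12093, 8281 and 31518 CPM in *Cd36*-low cells. *Csn1s1* and *Csn3* were higher by log2 1.11 ± 0.15 and 1.20 ± 0.17 (edgeR adjusted p = 0.0590 and 0.0633). Caseins together took 12.3% to 17.6% of the reads of members and 4.31% to 9.23% of the reads of *Cd36*-low cells. Both ranges were highest in p53L. Of the 12 casein, whey and defence genes that were higher in all 4 mice, 12 stayed so in every mouse without the top cell of either class, and 11 of the 14 genes of the uptake, synthesis and triglyceride lists below did.

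Among the 7 whey and late milk protein genes, 5 were higher in members in all 4 mice and 4 of them did not overlap, with a list median of 4.63. *Wap*, the whey acidic protein, had 300, 226, 501 and 350 CPM in members and 1.09, 4.07, 9.15 and 18.5 CPM in *Cd36*-low cells (log2 fold change 5.99 ± 0.76, edgeR adjusted p = 0.0527). *Lalba*, the alpha-lactalbumin that forms part of lactose synthase, had 267, 162, 268 and 231 CPM in members, against 17.8, 0.114, 0 and 18.5 CPM. *Lao1*, an L-amino acid oxidase of milk, had 377, 367, 581 and 440 CPM in members and at most 9.57 CPM in *Cd36*-low cells (log2 fold change 8.92 ± 1.16, edgeR adjusted p = 0.0527). These 3 genes were at 18.5 CPM or less in every *Cd36*-low sum and did not pass the edgeR threshold, and DESeq2 called all 3. *Muc15* and *Wfdc18*, which were abundant in both classes, had smaller log2 fold changes of 0.49 ± 0.18 and 0.37 ± 0.15.

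Late milk genes varied widely among the members themselves. *Wap* was at 0 in 26 of 125 members, had a median of 69.5 CPM and reached 3737 CPM, and *Lalba* was at 0 in 25, with a median of 67.4 CPM and a maximum of 2305 CPM. In thinned cells, 68 members had reads of both genes, 14 of *Wap* alone, 25 of *Lalba* alone and 18 of neither. All 4 mice held members of each kind. Of the 36 *Cd36*-low cells, 25 had reads of neither. The middle 50% of members lay between 38700 and 67375 CPM for *Csn2*, a much narrower range in proportion than the 1.27 to 412 CPM of *Wap*. Within each mouse, the Spearman correlation over members between casein and whey sums was 0.32 to 0.74 (16 to 47 cells), and between caseins and total reads it was 0.26 to 0.62, with all values from the same libraries.

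Milk defence genes encode proteins that limit microbes in milk. Of 9 genes, 7 were tested, 3 were higher in all 4 mice without overlap, and the median was 1.75. *Pigr*, the receptor that carries immunoglobulin A into milk, had 346, 360, 381 and 258 CPM in members against 36.4, 107.7, 36.1 and 12.5 CPM in *Cd36*-low cells (log2 fold change 3.26 ± 0.54, edgeR adjusted p = 0.137). *Trf*, transferrin, had 2281, 1747, 2060 and 1886 CPM against 677, 849, 585 and 420 CPM. *Lcn2*, an iron-binding lipocalin, differed less, with a log2 fold change of 0.78 ± 0.20. None of these 3 passed the edgeR threshold.

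Fatty acid uptake is the function that *Cd36* itself serves. Of 9 genes besides *Cd36*, 8 were tested, 4 were higher in members in all 4 mice, 3 of these without overlap (*Fabp3*, *Lpl* and *Acsl1*), and the median was 1.39. *Lpl* (chromosome 8, 68880491 to 68907448, plus strand), the lipoprotein lipase that frees fatty acids from circulating triglyceride, had 695, 417, 401 and 765 CPM in members and 226, 294, 214 and 388 CPM in *Cd36*-low cells. The gap was narrow, between 401 and 388 CPM, and the log2 fold change of 1.06 ± 0.32 did not pass (edgeR adjusted p = 0.861). *Acsl1*, a long-chain acyl-CoA synthetase, had 970, 805, 623 and 906 CPM against 324, 514, 85.7 and 379 CPM (log2 fold change 1.63 ± 0.40, edgeR adjusted p = 0.700). Over the members of each mouse, the Spearman correlation of *Cd36* with *Lpl* was 0.30 to 0.43, with *Fabp3* -0.00 to 0.41, and with the total reads of the cell 0.28 to 0.47.

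Fatty acid synthesis supplies the milk fat made within the cell. Of 18 genes, 17 were tested, 6 were higher in members in all 4 mice, 5 of them without overlap, and the median was 1.55. *Thrsp*, a regulator of lipogenesis also called Spot14, had 1652, 1592, 1195 and 1480 CPM in members against 413, 467, 94.9 and 166 CPM (log2 fold change 2.70 ± 0.38, edgeR adjusted p = 0.0625). *Olah*, the thioesterase that releases medium-chain fatty acids, had 108.4, 25.1, 60.1 and 85.6 CPM in members and was at 0 in the *Cd36*-low sums of pBr53L and p53L. *Scd1*, a stearoyl-CoA desaturase, had a log2 fold change of 1.49 ± 0.22 (edgeR adjusted p = 0.0778). Not every enzyme moved in every mouse: *Fasn*, the fatty acid synthase, had 935, 491, 616 and 657 CPM in members and 221, 291, 355 and 739 CPM in *Cd36*-low cells, with the order turned in p53L. The *Cd36*-low value of p53L was 548 CPM without its top cell, below the members.

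Among 11 triglyceride and milk fat globule genes the median was 1.38, 4 were higher in members in all 4 mice and 1 was lower. *Plin2*, the coat protein of lipid droplets, had 4866, 4641, 5049 and 3685 CPM in members and 1854, 2730, 1276 and 749 CPM in *Cd36*-low cells (log2 fold change 1.67 ± 0.26, edgeR adjusted p = 0.0974). *Xdh*, xanthine dehydrogenase, which binds butyrophilin on the globule membrane, had 339, 458, 470 and 427 CPM against 167, 152, 41.1 and 27 CPM. *Btn1a1*, butyrophilin itself, had 992 CPM in the 3 *Cd36*-low cells of p53L, above the member sums of all 4 mice, of which 95.3% came from 1 cell, with 91.6 CPM in the rest. The lower gene was *Mfge8*, a secreted globule protein, with a log2 fold change of -0.32 ± 0.27, and its direction turned without 1 cell in 3 mice. Lactation transporters had a median of 1.15 over 9 tested of 11, and *Abcg2*, which carries riboflavin into milk, had 325, 259, 359 and 251 CPM in members against 48.3, 16.9, 15.5 and 1.32 CPM (log2 fold change 4.56 ± 0.80, edgeR adjusted p = 0.172).

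**Figure D2:**
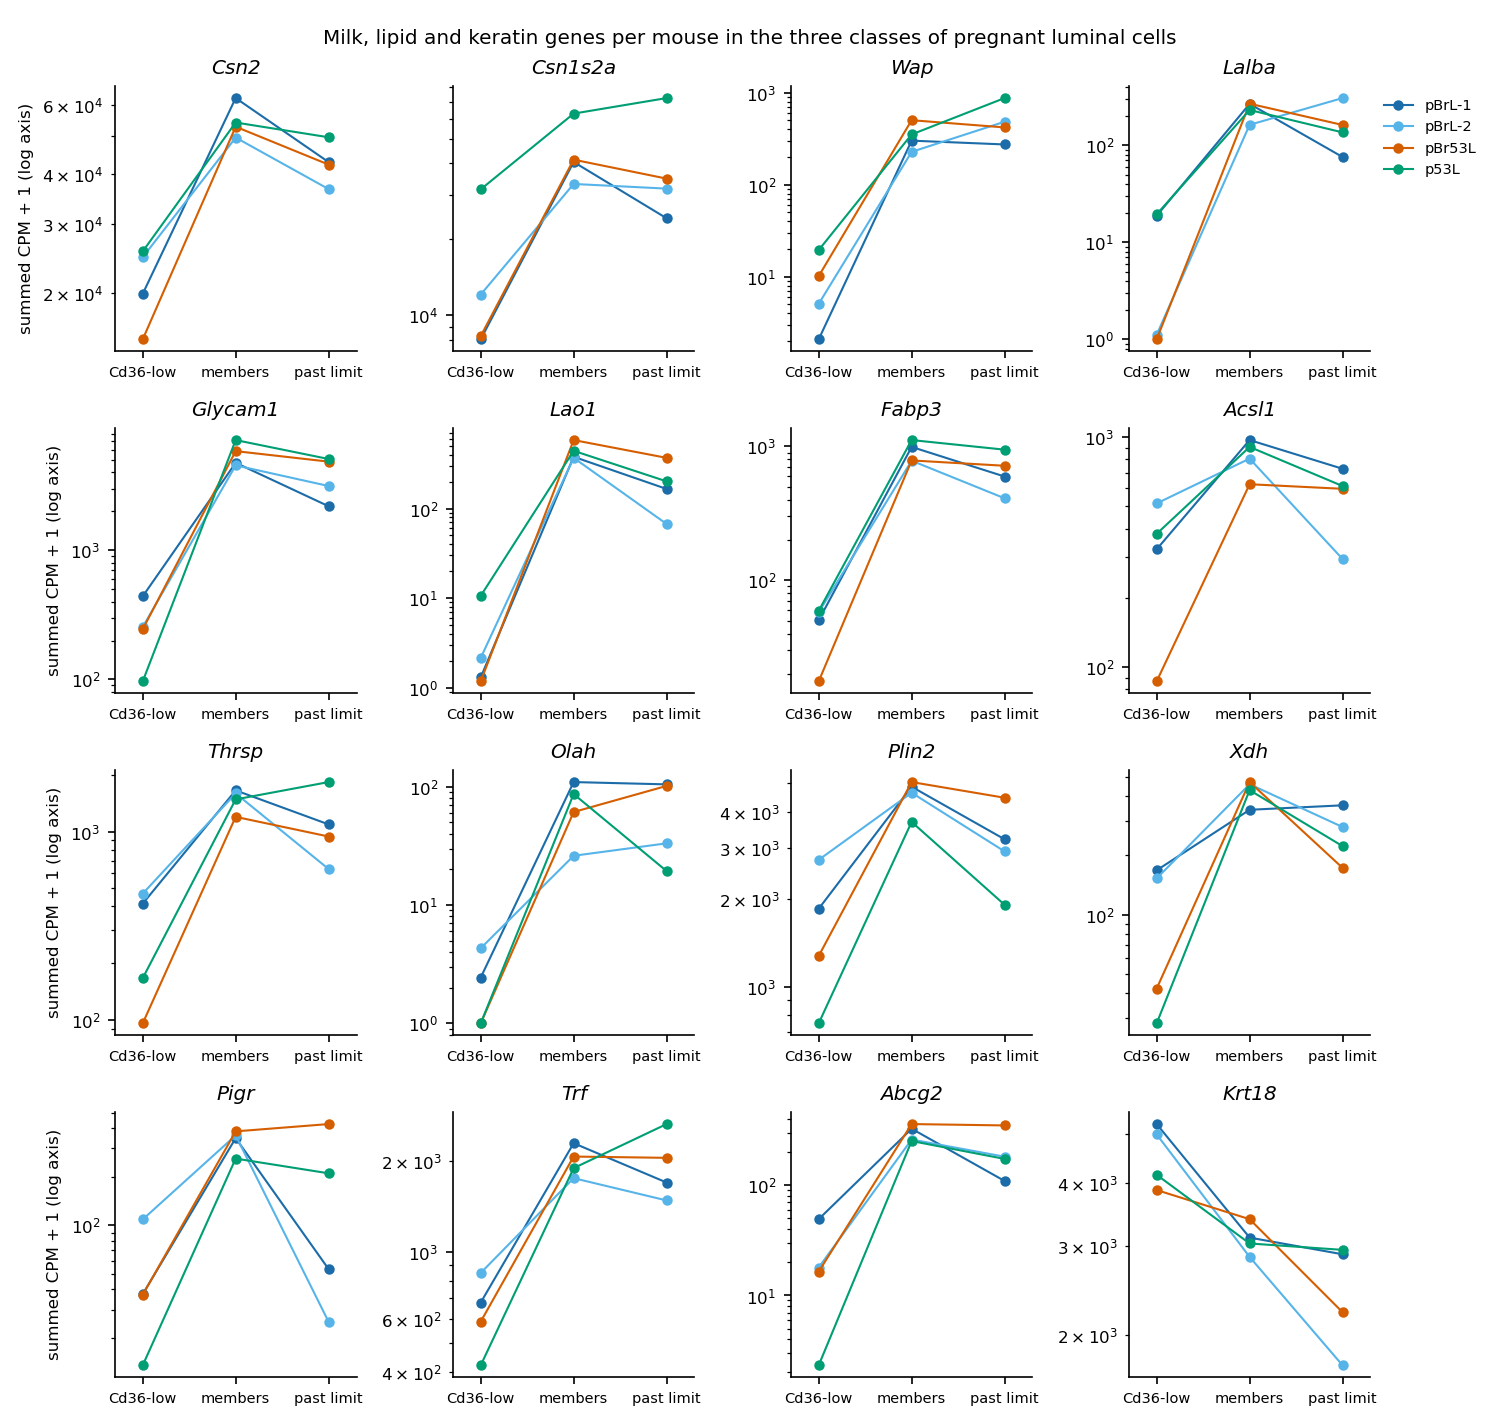
Summed CPM + 1 on a log axis for 16 genes in *Cd36*-low cells, members and cells past the *Prlr* or *Esr1* limit, with 1 line per mouse joining its 3 sums. *Fabp3* and *Glycam1* are higher in members than in *Cd36*-low cells in 4 of 4 mice, and *Krt18* is lower in members in 4 of 4.

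Other metabolic lists stood at or below the median of all genes. Cholesterol synthesis genes had a median of -0.17 over 10 genes, and 0 were higher or lower in all 4 mice. *Hmgcs1*, an early enzyme of that pathway, had 151, 241, 205 and 238 CPM in members and 374, 209, 471 and 257 CPM in *Cd36*-low cells. Its order turned without the top cell of the pBrL-2 members, which then had 135 CPM. It also turned without that of the *Cd36*-low cells of p53L, which then had 184 CPM. Fatty acid oxidation genes had a median of 0.43 over 11 tested of 12, and genes of ER folding and secretion a median of -0.03 over 16, with 3 higher and 3 lower in all 4 mice. *Hspa5*, the ER chaperone BiP, had a log2 fold change of -0.26 ± 0.21. None of the 3 lower ER genes was lower in every mouse without the top cell of a class, and of the 3 higher ones *Xbp1* turned.

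**Figure D3:**
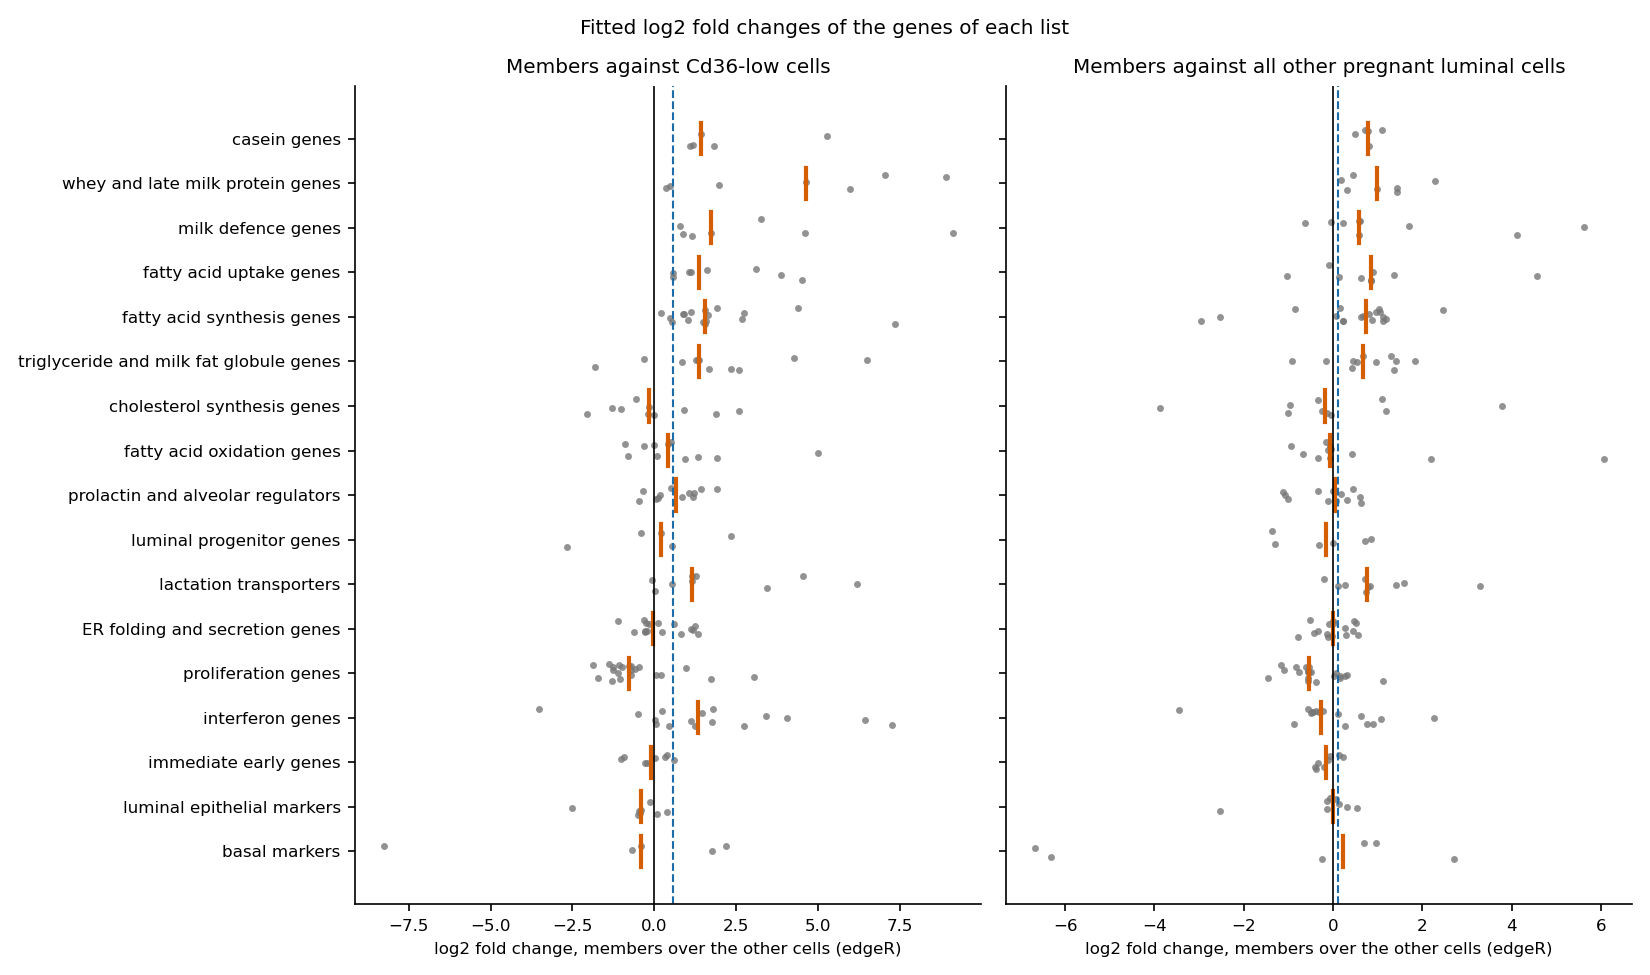
Fitted edgeR log2 fold changes of the tested genes of 17 lists, members over *Cd36*-low cells on the left and members over all other pregnant luminal cells on the right, with 1 point per gene, orange bars at list medians, a solid line at 0 and a dashed line at the median of all genes (0.57 and 0.10). The medians of the casein, whey, milk defence, fatty acid uptake, fatty acid synthesis, triglyceride and transporter lists lie to the right of the dashed line in both panels, and those of cholesterol synthesis, fatty acid oxidation and proliferation to its left.

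Regulators of the alveolar state stood near the median of all genes. Of 12 prolactin and alveolar regulators, 2 were higher in members in all 4 mice, 0 without overlap, and the median was 0.68. Of these 2, *Cebpb* did not stay higher in every mouse without the top cell of a class. *Elf5* (chromosome 2, 103411688 to 103450989, plus strand) varied widely between mice. Members had 1243 CPM in pBrL-1, 1026 in pBrL-2, 455 in pBr53L and 153 in p53L, *Cd36*-low cells had 470, 765, 367 and 39.2 CPM, and cells past the *Prlr* or *Esr1* limit 943, 526, 526 and 106.7 CPM. In each class *Elf5* was lowest in p53L. With 1 mouse and 1 chip for p53L, no test between genotypes was made. *Stat5a* had 135, 97.7, 59.7 and 71.1 CPM in members (log2 fold change 0.51 ± 0.62) and *Stat5b* 54.4, 19.6, 29.8 and 17.8 CPM (1.92 ± 1.44).

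Members were epithelial and luminal by their markers. *Epcam*, an epithelial adhesion protein, was read in 125 of 125 thinned members, and so was *Krt18*, a luminal keratin. The summed level of the 8 luminal markers was 7423 to 8550 CPM in members and 9380 to 11397 CPM in *Cd36*-low cells. *Krt18* had 3117, 2853, 3391 and 3034 CPM in members and 5237, 4996, 3873 and 4153 CPM in *Cd36*-low cells, without overlap (log2 fold change -0.49 ± 0.18, edgeR adjusted p = 0.861). *Krt7* had 6.37, 16.5, 25.7 and 2.69 CPM in members against 90.4, 45.2, 70.1 and 32.3 CPM. Of the 8 luminal markers, 5 were lower in members in all 4 mice and 0 were higher, and only *Krt18* stayed lower in every mouse without the top cell of either class. *Krt7* in *Cd36*-low cells of pBr53L was 20.6 CPM without that cell. Of 6 luminal progenitor genes, 5 were tested and the median was 0.19, with 0 higher in all 4 mice and 1 lower, *Aldh1a3*. *Aldh1a3*, a retinaldehyde dehydrogenase used as a luminal progenitor marker, had 1.65, 7.73, 18.5 and 14.4 CPM in members and 188, 30.2, 57.0 and 53.1 CPM in *Cd36*-low cells (log2 fold change -2.67 ± 1.19, edgeR adjusted p = 0.861). Without the top cell its *Cd36*-low level was 0.714 CPM in pBr53L and 0 in p53L, below the members. *Kit*, another progenitor marker, had 151, 314, 135 and 145 CPM in members and 114, 217, 414 and 67.6 CPM in *Cd36*-low cells, and 1 cell gave 63.5% of its reads in the members of pBrL-2, with 123 CPM in the rest.

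Hormone-sensing genes were low in most members. *Pgr*, the progesterone receptor, was read in 2 of 125 thinned members (1.60%) and *Foxa1*, a factor that opens chromatin for the estrogen receptor, had at most 0.275 CPM in any member sum. The 10 hormone-sensing genes summed to 6.18 to 119 CPM in members, 10.6 to 160 CPM in *Cd36*-low cells and 22.5 to 267 CPM in cells past the limit. The list holds neither *Esr1* nor *Prlr*. Its sum was 100 CPM or more in 19 of 125 members and reached 1102 CPM in 1, and in *Cd36*-low cells it was 100 CPM or more in 7 of 36.

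Basal genes were read in both classes. Their sum was 121, 153, 207 and 44.2 CPM in members of pBrL-1, pBrL-2, pBr53L and p53L and 2641, 406, 38.6 and 818 CPM in *Cd36*-low cells, so that members were lower in 3 mice and higher in pBr53L. Most of the *Cd36*-low reads came from 1 cell in 2 of these mice. Without the basal-rich cell the *Cd36*-low sum of pBrL-1 was 95.5 CPM, and without 1 cell with 1646 CPM that of p53L was 16.2 CPM, both below the members, so only pBrL-2 then had lower members. It was 100 CPM or more in 45 of 125 members and 17 of 36 *Cd36*-low cells. *Krt5*, a defining basal keratin, was read in 0 of 125 members, for which the limit of 3 cells of 125 is 2.40% (exact 95% upper bound 2.91%), and in 3 of 36 *Cd36*-low cells. *Acta2*, the smooth muscle actin of myoepithelial cells, had 0.0128, 1.04, 0.371 and 0.0612 CPM in members and 1410, 29.2, 6.65 and 242 CPM in *Cd36*-low cells, and was read in 3 of 125 thinned members and 6 of 36 *Cd36*-low cells (10.4% and 25% without thinning). Without the top cell the *Acta2* level of *Cd36*-low cells was 0.162, 18.3, 0.193 and 0 CPM. Summed basal markers reached 1000 CPM in 3 *Cd36*-low cells, with a maximum of 30558 CPM, and in 2 members, with a maximum of 1430 CPM. *Krt14*, another basal keratin, was present in both classes, in 46 of 125 thinned members and 20 of 36 *Cd36*-low cells. Without the basal-rich cell of pBrL-1, *Csn2*, *Fabp3* and *Glycam1* remained called (edgeR, 8 genes), with log2 fold changes of 1.4, 4.52 and 4.6.

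Adipocytes, endothelial cells and macrophages also use *Cd36*, so their markers were examined in members. Of 8 adipocyte markers, 5 were at 0 in all members (*Adipoq*, *Adrb3*, *Cfd*, *Cidec* and *Plin4*) and the summed level was at most 29.5 CPM in any member. Of 8 endothelial markers, *Gpihbp1* and *Tek* were at 0, and 2 members had a sum of 100 CPM or more. The 8 immune markers summed to 100 CPM or more in 7 members and to 1000 CPM or more in 1. That cell, in pBr53L, had 2175 CPM of the leukocyte gene *Ptprc* and 1422 CPM of *Tyrobp*, with 236 CPM of *Csn2* and 272 CPM of *Krt18*, where the median member had 53331 and 2893 CPM. It went against the label alveolar, and it was the member with the lowest *Csn2*. A *Ptprc* read was found in 5 members, 3 of them in pBr53L. Without all cells that had a *Ptprc* read, *Fabp3* and *Glycam1* remained called (edgeR, 2 genes). The log2 fold change of *Csn2* was then 1.59, against 1.44 with all cells, and its edgeR adjusted p was 0.113.

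**Figure D4:**
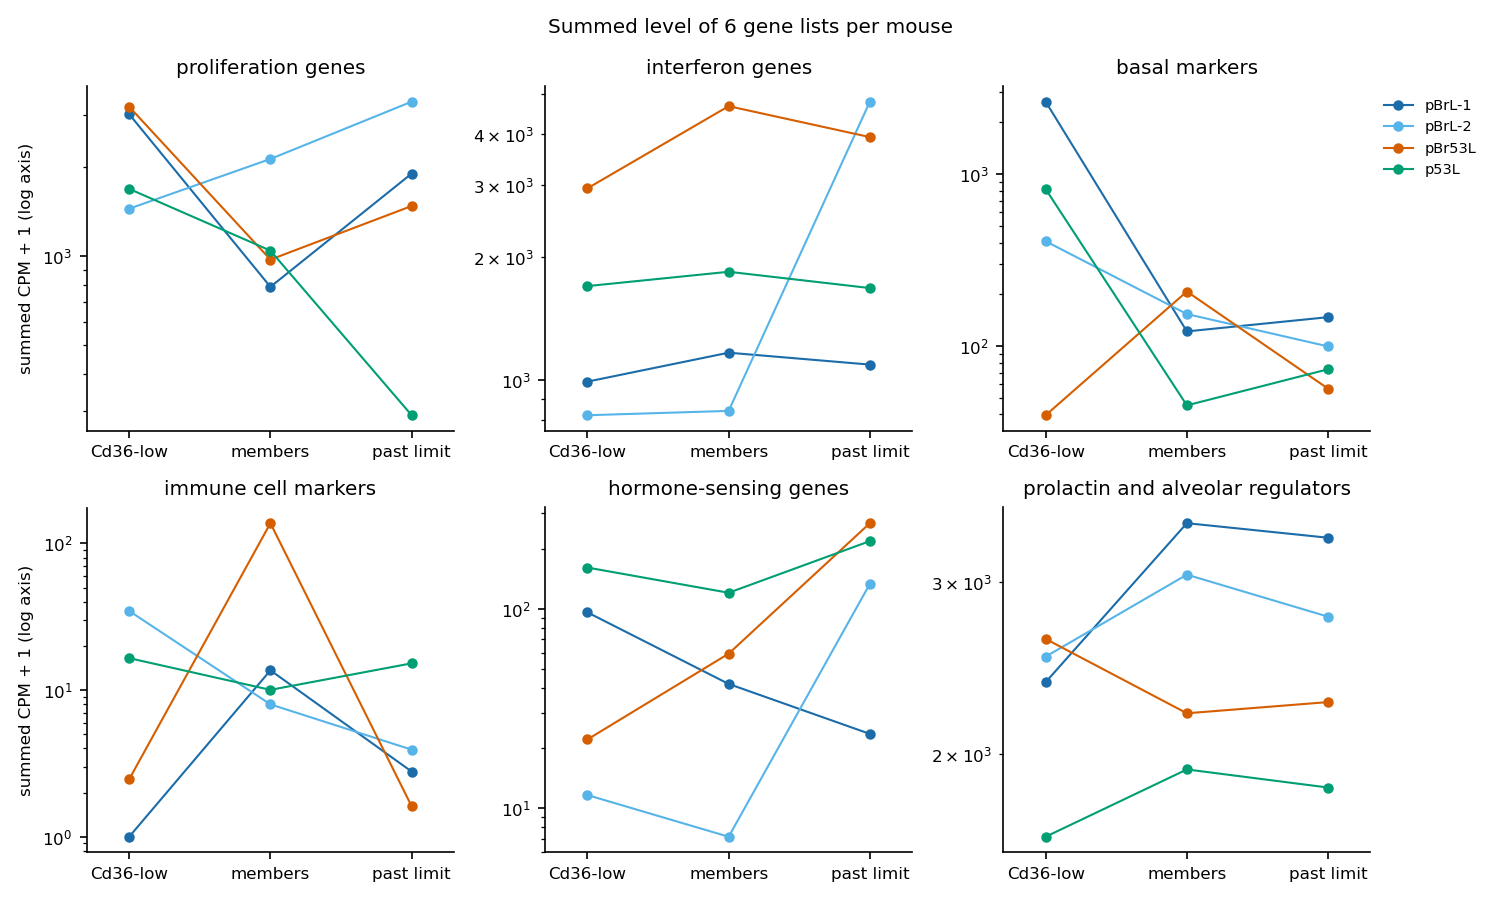
Summed CPM + 1 on a log axis for 6 gene lists in *Cd36*-low cells, members and cells past the *Prlr* or *Esr1* limit, with 1 line per mouse. Proliferation sums are lower in members than in *Cd36*-low cells in 3 mice and higher in pBrL-2, and the immune sum of pBr53L members, 136 CPM, stands above the rest, with 84.8% of its reads from 1 cell.

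Summed proliferation genes were lower in members than in *Cd36*-low cells in 3 mice and higher in pBrL-2. In p53L the *Cd36*-low sum of 1688 CPM was 141 CPM without 1 of its 3 cells, below the 1044 CPM of members. The 21 genes had a median of -0.77, 2 were higher and 1 lower in all 4 mice, and 0 passed the edgeR threshold. Without the top cell of a class, 1 of the 2 higher genes, *Rrm2*, and the lower gene, *Pcna*, lost their direction. *Mki67*, a marker of cycling cells, had 84.3, 149, 67.9 and 97.6 CPM in members of pBrL-1, pBrL-2, pBr53L and p53L and 454, 115, 436 and 617 CPM in *Cd36*-low cells (log2 fold change -1.88 ± 0.59, edgeR adjusted p = 0.861). The value of 617 CPM came almost wholly from that cell of p53L, and the other 2 had 0.443 CPM. In thinned cells, reads of both *Mki67* and *Top2a* were found in 5 of 47 members of pBrL-1 (10.6%), 8 of 16 of pBrL-2 (50%), 12 of 38 of pBr53L (31.6%) and 4 of 24 of p53L (16.7%). In *Cd36*-low cells of the same mice they were found in 3 of 13 (23.1%), 5 of 13 (38.5%), 4 of 7 (57.1%) and 1 of 3 (33.3%). The share was lower in members in 3 mice and higher in pBrL-2, and no test was made. Without thinning, 41.6% of all members and 44.4% of all *Cd36*-low cells had reads of both genes. Without the cells that had reads of both genes, only pBrL-1 and pBrL-2 kept 3 cells per class, and edgeR called 11 genes, among them *Csn2*, *Fabp3*, *Glycam1*, *Csn1s2a*, *Csn3* and *Lao1*.

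The summed level of interferon genes in members was 4668 CPM in pBr53L, 1838 in p53L, 1165 in pBrL-1 and 840 in pBrL-2. In the same order of mice it was 2940, 1696, 990.2 and 819 CPM in *Cd36*-low cells and 3922, 1677, 1090 and 4787 CPM in cells past the *Prlr* or *Esr1* limit. In pBrL-2, 1 cell past the limit with 27086 CPM gave 83.5% of the reads of its sum, which was 928 CPM without it. Without the top cell of each sum, pBr53L had 4072 CPM in members, 2377 CPM in *Cd36*-low cells and 3017 CPM in cells past the limit, above the other 3 mice in each class. *Cxcl9*, a chemokine induced by interferon gamma, had 278 CPM in the members of pBr53L, from 7 of its 38 cells, and 0 in the members of the other 3 mice. Of these 7 cells, 1 had 6545 CPM, 3 had 1622, 1445 and 362 CPM, and the remaining 3 had 1.25 CPM or less. *Ifi47*, an interferon-induced GTPase, had 207, 143, 805 and 218 CPM in members and 153, 116, 5.35 and 0 CPM in *Cd36*-low cells. Without the top member of pBrL-2, the *Ifi47* sum of its members was 99 CPM, below its *Cd36*-low cells. *Ifit1*, in contrast, had 0.332, 0, 25.2 and 29 CPM in members and 5.40, 0.0380, 115 and 649 CPM in *Cd36*-low cells. Of 16 tested interferon genes, 5 were higher and 1 lower in members in all 4 mice, and 0 passed the edgeR threshold. Without the top cell of either class, 3 of these 5 stayed higher in every mouse, and *Cxcl10* and *Ifi47* did not.

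Members were also compared with all other pregnant luminal cells together. Of 11192 genes, 0 passed the edgeR threshold (0%). The unadjusted edgeR p of 496 was under 0.05, a smaller share than the 0.05 reached when no gene differs. DESeq2 called 139 higher (1.24%) and 83 lower (0.742%). The median log2 fold change of all genes was 0.10. Of all genes, 6.82% were higher and 7.37% lower in members in all 4 mice, and 1.56% and 1.61% without overlap. *Fabp3* had a log2 fold change of 1.36 ± 0.27 (edgeR adjusted p = 0.83) and *Plin2* 0.97 ± 0.13 (0.377), where the values over *Cd36*-low cells alone were 4.53 and 1.67. The 18 fatty acid synthesis genes had a median of 0.75, the 5 caseins 0.79 and the 9 uptake genes 0.85. *Cd200* and *Ptn*, chosen after their values were seen, were lower in members in all 4 mice without overlap. *Cd200*, a membrane glycoprotein, had 1.12 ± 1.29 CPM in members and 75 ± 39.7 CPM in the other cells (SD, n = 4 mice), and *Ptn*, a growth factor, 1.34 ± 1.66 and 104.5 ± 151 CPM. Against *Cd36*-low cells alone neither gene had 1 direction in all 4 mice, with log2 fold changes of 2.16 ± 2.49 for *Cd200* and -0.62 ± 4.47 for *Ptn* whose signs changed between settings. In each mouse, 1 cell gave at least 99.7% of the *Cd200* reads and at least 97.9% of the *Ptn* reads of the cells past the *Prlr* or *Esr1* limit, so these differences rest on few cells.

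The 37 cells past the *Prlr* or *Esr1* limit, 25 of them *Cd36*-high, were part of that wider arm. In these cells *Fabp3* had 594, 409, 716 and 944 CPM and *Csn2* 42977, 36708, 42352 and 49685 CPM in pBrL-1, pBrL-2, pBr53L and p53L, between members and *Cd36*-low cells in all 4 mice. Without the top member of pBr53L, *Fabp3* had 713 CPM in its members, just below the 716 CPM of the cells past the limit. *Wap* had 273, 482, 418 and 872 CPM in the cells past the limit. A single cell gave 61.6% of these reads in pBrL-1, 68% in pBrL-2 and 61.5% in p53L. Without it the *Wap* sums were 115, 181 and 379 CPM, against 300, 226 and 350 CPM in the members of these mice. When only the cells past the limit formed the other arm, edgeR called 0 of 10724 genes. The unadjusted edgeR p of 412 was under 0.05, again a smaller share than the 0.05 reached when no gene differs. A p that misses the threshold does not show that members and these cells were alike. Of the 150 pregnant luminal cells with 100 CPM or more of *Cd36*, 25 were set aside for *Prlr* or *Esr1*.

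Virgin luminal cells rarely passed the same limits. In all, 4 of 114 virgin cells did, 3 in the *Brca1* mutant mouse vBrL, 1 in the double mutant vBr53L and 0 in the *Trp53* mutant v53L, whereas 125 of 198 pregnant cells did. The 3 vBrL cells had 19872 CPM of *Csn2*, 189 CPM of *Lpl*, 60.3 CPM of *Glycam1* and 0 of *Fabp3* and *Wap*, all below the members of every pregnant mouse. The test of this comparison set 4 pregnant sums against the 1 virgin sum with 3 cells or more, which was assumed to vary like the pregnant ones. It called 2325 of 13804 genes with edgeR (16.8%), with a median log2 fold change of 3.19 over all genes, and no gene is described from it.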

How the data were processed

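Single-cell RNA sequencing of 477 C1-captured cells was deposited as read counts per gene for 21004 genes, 1 column per cell, without molecular identifiers. Per the submitters' processing notes, the authors used Trim Galore 0.4.1, STAR 2.5.3a and Subread 1.5.3 with mm10. The gene annotation and the strand setting of the counting are not given in the sources used here, so overlapping genes and near-identical paralogs could share reads. The authors examined each capture site for doublets under a microscope, and no doublet caller was run.

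CPM was computed from the deposited counts over all genes. Counts were summed per mouse and class (at least 3 cells) and tested with edgeR 4.0.16 (quasi-likelihood, TMM, filterByExpr, mouse as a block, Benjamini-Hochberg adjustment, threshold 0.05) in R 4.3.3. The SE of an edgeR log2 fold change is its absolute value divided by the square root of the quasi-likelihood F statistic. It was not estimated directly from the values of the mice. DESeq2 1.42.0 was an alternative. The classes are paired because their cells came from the same animal. *Cd36*, *Prlr* and *Esr1* were not tested. Shares of cells carry exact 95% binomial intervals, and detection was also counted after thinning each cell to 100000 reads. The text names genes called by edgeR in the same direction in every mouse whose mean in the higher class reached 10 CPM (up to 12 per direction, no gene models), and genes of fixed lists. *Cd200*, *Ptn*, *Lipa* and *Calca* fall outside this rule and were named after their values were seen. The members and the lists were chosen with earlier results of these data known. Gene coordinates are from GENCODE vM21 on GRCm38 (mm10), and sequences from RefSeq, in which *Lpl* was not matched. The main edgeR fits were tested on simulated data with 200 genes changed 8-fold, and the other settings were not. Against *Cd36*-low cells 47% of these genes were recovered, with 3 false calls. Against all other pregnant luminal cells 77.5% were, with 5 false calls. In the fits with a mouse block, p-values set the difference between classes within mice against its spread over the 4 mice. These mice differed in chip, and all but pBrL-1 and pBrL-2 in genotype. The comparison with virgin cells had no block. Other settings were RLE size factors, no filter on low counts, library sizes without casein and whey genes, *Cd36* limits of 50 and 200 CPM, thinning, no block and leaving out each mouse.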

Additional observations from a re-analysis of the deposited data

Results flagged for a closer look

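In 8 of 73 groups of 4 mice examined on the log2(CPM + 1) scale, the gap of 1 mouse to its nearest neighbour, divided by the range over the 4 mice, was above the 95% critical value of Dixon for 4 samples, and chance flags about 5% of such groups. In the members of pBrL-1 the lactation transporters summed to 1781 CPM against 1272 to 1308 CPM in the others (ratio 0.917), *Btn1a1* had 714 CPM against 513 to 529 CPM (0.906), and adipocyte markers summed to 0.818 CPM against at most 0.0549 CPM (0.911). *Kit* was high in pBrL-2, with 314 CPM against 135 to 151 CPM (0.867), and 63.5% of these reads came from 1 cell. *Srebf1*, a regulator of lipid synthesis, was low in pBr53L, with 71.3 CPM against 127 to 139 CPM (0.859). *Cxcl9* had reads in the members of pBr53L alone, at 278 CPM (ratio 1). In p53L, *Calca*, which encodes calcitonin and its related peptide, had 57.4 CPM against at most 0.426 CPM (0.913), with 98% of the reads from 1 cell, and *Wfdc18* had 23014 CPM against 18820 to 19450 CPM (0.836). Each value rests on 1 mouse and 1 chip, and its cause was not tested.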

How the results depend on the processing

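Against *Cd36*-low cells, edgeR called 3 genes. DESeq2 called 630, no filter on low counts gave 16, thinning to 100000 reads gave 21, and a *Cd36* limit of 200 CPM gave 7. Leaving out each mouse in turn gave 1 to 6 genes, with *Glycam1* alone without pBrL-1, *Fabp3* alone without pBr53L and 6 genes without p53L. Without the replicate block, *Fabp3* and *Glycam1* remained, 2 genes. Among settings chosen after seeing the data, 11 genes were called without cells with reads of both *Mki67* and *Top2a*, 8 without the cell with 1000 CPM or more of fibroblast markers and 6 with at least 1000000 reads per cell. Against all other pregnant luminal cells, edgeR called 0 genes, without the block also 0, DESeq2 222, no filter 11 and thinning 3, and leaving out each mouse gave 0 to 3, the 3 without p53L. Against virgin cells, edgeR called 2325 genes, DESeq2 4847 and thinned cells 516, and leaving out each mouse gave 1643 to 2653. A *Cd36* limit of 200 CPM could not be fitted there. The cause of these differences was not tested. Over single genes and settings, 1488 of 1591 values kept their side of the threshold, 93 passed it newly and 10 no longer did. Only *Csn2*, *Fabp3* and *Glycam1* against *Cd36*-low cells had a call to lose, so the losses all fell on them. *Csn2* was called in 9 of 17 fits, and *Fabp3* and *Glycam1* in 16 of 17 each. The sign differed in 32 values, none of them with a call on either side, for 15 of 97 pairs of gene and comparison. These were *Cd200*, *Kit*, *Krt14* and *Ptn* against *Cd36*-low cells, and 11 genes against all other cells (*Aldh1a3*, *Hmgcs1*, *Hspa5*, *Ifit1*, *Krt14*, *Krt18*, *Krt8*, *Mki67*, *Stat5a*, *Top2a* and *Wap*). The *Cd36*-low arm of p53L, with 3 cells, limits the depth most.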
